A study of Mus musculus with 4 samples.

Results

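Myh11 cells were sorted lung cells with Myh11, the myosin heavy chain of smooth muscle, at 3 or more unique molecular identifiers (UMIs) per 10000, and with Tnnt2 under 1, Upk3b under 2 and Sftpc under 2 UMIs per 10000. These limits keep out cells above those levels of cardiac troponin T, of the mesothelial uroplakin and of surfactant protein C. Cells under a limit may still hold the transcript, and a Tnnt2 UMI was found in 17 and 28 Myh11 cells of the mutant libraries and 1 and 4 of the control libraries. Only barcodes with 1000 or more genes and no more than 15% mitochondrial UMIs were considered. The rule was met by 495 of 8733 kept barcodes, 47 and 283 in mutant libraries 1 and 2, and 25 and 140 in control libraries 1 and 2. Both genotypes therefore held such cells, in libraries of very different size.

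Smooth muscle cells of the developing lung wrap the airways and vessels and contract by the sliding of myosin on smooth muscle actin. Their contractile genes are switched on by serum response factor and its partner myocardin, and airway muscle forms under hedgehog signals from the epithelium. Lung myofibroblasts share actin and myosin genes with muscle, lay down elastin and are known for the PDGF receptor Pdgfra. Mesothelium, the outer covering of the lung, can give rise to mesenchymal cells in development.

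The study compared Myrf mutant with control lung cells, Myrf being a membrane-bound transcription factor. Mutant embryos carried floxed Myrf, the Wt1creERT2 driver, which acts in cells that express Wt1 at the time of tamoxifen, and the R26TdTomato reporter, which marks those cells and their descendants. Control embryos carried the Cre driver and the reporter, received the same tamoxifen, and are called Cre controls, without their Myrf alleles being named. Tamoxifen was injected at E12.5, lungs were taken at E16.5, each pool held 3 to 5 lungs of a genotype, and tdTomato-positive, DAPI-negative cells were sorted for droplet sequencing of transcript 3' ends, in 2 libraries per genotype. No label says that replicate libraries were made from different pools, so p-values measure only the spread between these libraries, which may be technical.

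The kept barcodes numbered 412 and 4432 in the mutant libraries and 282 and 3607 in the control libraries. Myh11 cells held 1681946 and 4646945 UMIs in the mutant libraries and 637997 and 2812422 UMIs in the control libraries, so control library 1 set the lowest precision. Their median depth was 32428 and 14388 UMIs per cell in the mutant libraries, and 26169 and 18698 in the control libraries. Libraries shared 9 barcodes in all, and no shared barcode was a Myh11 cell in both libraries that held it. Among Myh11 cells that could be sexed by Xist or Y-linked UMIs alone, female cells (Xist) made up 67.4% and 82% in the mutant libraries, and 27.3% and 47.9% in the control libraries. The mix of female and male cells therefore differed with genotype, and values in the Xist cells alone are given beside many of the results. These cells numbered 29 and 205 in the mutant libraries and 6 and 58 in the control libraries, so control library 1 rests on 6 cells there.

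The Tnnt2 limit removed the most cells, mainly in mutants. Myh11 reached 3 per 10000 in 144 and 513 barcodes of the mutant libraries and in 27 and 198 of the control libraries, and of these 94 and 229 in mutants and 1 and 27 in controls were over the Tnnt2 limit. Over the Upk3b limit were 0 and 2 of them in mutants and 1 and 39 in controls, and over the Sftpc limit 4 and 1 in mutants and 0 and 27 in controls. At the Myh11 limit, the 44 cells just inside (3 to 3.5 per 10000) stood at 1424 CPM (counts of UMIs scaled to equal totals) of Acta2, 617 CPM of Ednrb and 100.5 CPM of Crh, and the 60 cells just outside (2.5 to 3) at 1737, 518 and 39.6 CPM. At the Tnnt2 limit, the 31 cells just inside (0.5 to 1 per 10000) stood at 3544 CPM of Acta2, 685 CPM of Des, 465 CPM of Ednrb and 133 CPM of Crh, and the 18 just outside (1 to 1.5) at 3664, 1724, 117 and 4.82 CPM. Crh and Ednrb were thus lower and Des higher just outside the Tnnt2 limit, with Acta2 at a similar level on both sides.

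Acta2 and Myl9 carry the sequence feature by which serum response factor is known to bind contractile genes, the CArG box, and their promoters are shown for that reason. Windows of 250 bases before to 50 after the gene start, from RefSeq on GRCm38.p6, are printed on the gene's strand with every CArG box in capitals, allowing 1 letter off inside its A and T core. The Acta2 window lies at chr19:34255324-34255623 on the minus strand and the Myl9 window at chr2:156775214-156775513 on the plus strand.
Acta2: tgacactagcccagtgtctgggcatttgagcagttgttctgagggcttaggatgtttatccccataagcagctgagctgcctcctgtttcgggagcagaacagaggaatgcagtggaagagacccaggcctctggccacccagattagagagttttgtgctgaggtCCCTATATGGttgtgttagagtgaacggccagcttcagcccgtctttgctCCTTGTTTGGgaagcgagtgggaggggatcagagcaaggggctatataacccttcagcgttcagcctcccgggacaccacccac
Myl9: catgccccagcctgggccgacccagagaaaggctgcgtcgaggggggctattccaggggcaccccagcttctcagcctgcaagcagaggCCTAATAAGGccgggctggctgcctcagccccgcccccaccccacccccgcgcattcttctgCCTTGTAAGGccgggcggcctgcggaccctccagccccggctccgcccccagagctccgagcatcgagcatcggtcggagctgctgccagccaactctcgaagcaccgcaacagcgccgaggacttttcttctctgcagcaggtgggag
The boxes began at positions -84 and -34 in Acta2, each 1 letter off, and at -161 and -99 in Myl9, of which 1 was exact. RefSeq windows matched 17 of the 20 listed genes of the contractile apparatus, in 19 windows. An exact box stood in 1 of these (5.26%), against 1.63% of all 32851 windows, and a box with at most 1 letter off in 4 (21.1%), against 9.98% of all windows. The motif reads alike on both strands, no other motif was searched, and a match is only a description of these letters. Besides Acta2 and Myl9, the intermediate filament gene Synm and the calmodulin regulator Pcp4 held a box, at positions -239 and -107.

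Myh11 cells held the given markers in every library. Levels here are CPM of UMIs summed over the Myh11 cells of a library. Myh11 itself, used by the rule, stood at 1032 and 739 CPM in mutant and at 1077 and 1264 CPM in control Myh11 cells. Acta2, smooth muscle actin (ENSMUSG00000035783, mm10 chromosome 19, 34241090 to 34255590), stood at 2025 and 3460 CPM in mutants and 2033 and 2621 CPM in controls. The genotypes overlapped for Acta2.

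Crh, Ednrb, Tgfbi and Lgr6 set Myh11 cells apart from fibroblasts more sharply than Acta2 did. Crh encodes corticotropin-releasing hormone and stood at 89.2 and 193 CPM in mutant Myh11 cells and 243 and 429 CPM in control Myh11 cells. In the 614 fibroblasts with Tcf21, a transcription factor of lung fibroblasts, at 2 or more and Myh11 under 1 UMI per 10000, Crh stood at 0 to 2.38 CPM over the 4 libraries. After thinning every cell to 5000 UMIs, a Crh UMI was found in 22.2% and 32.6% of mutant and 30.4% and 47.8% of control Myh11 cells (31.9%, 42.0%, 44% and 57.1% before thinning), and in 0 to 0.952% of Tcf21 fibroblasts (0 to 2.68% before thinning, at median depths of 14531 to 28982 UMIs). Thinning left out 2 and 10 Myh11 cells of mutants and 2 and 6 of controls. Crh was therefore found in a part of the Myh11 cells, in each library above its level in fibroblasts.

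Ednrb, an endothelin receptor, stood at 751 and 813 CPM in mutants and 1047 and 988 CPM in controls, against 17.0 to 46.7 CPM in Tcf21 fibroblasts. Tgfbi, a matrix protein induced by TGF-beta, stood at 661 and 606 CPM in mutants and 1078 and 819 CPM in controls, against 6.79 to 19.97 CPM in fibroblasts. Lgr6, a receptor for R-spondins, stood at 69.6 and 74.0 CPM in mutants and 152 and 139 CPM in controls. All 3 receptors and matrix genes were lower in both mutant libraries than in both controls, which the test below takes up. Hhip, the hedgehog-binding inhibitor and hedgehog target, stood at 1376 and 755 CPM in mutants and 1328 and 1203 CPM in controls, so its genotypes overlapped.

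The Tnnt2-positive cells that the rule set aside held little Crh, and less Ednrb and Tgfbi than Myh11 cells of the same libraries, while Lgr6 and Hhip were found in both kinds. In the mutant libraries, which held 93 and 227 of them, Acta2 stood at 3187 and 3862 CPM, and Crh at 1.13 and 8.12 CPM, Ednrb at 110 and 210.1 CPM and Tgfbi at 193 and 123 CPM. Lgr6 stood there at 74.0 and 59.7 CPM, close to its level in mutant Myh11 cells, and Hhip at 625 and 366 CPM. After thinning, a Hhip UMI was found in 69.8% and 66.8% of these cells and in 77.8% and 83.2% of Myh11 cells of the mutants, and a Lgr6 UMI in 27.9% and 23.6% of these cells and in 35.6% and 33.7% of Myh11 cells. Des, the intermediate filament of muscle, stood there at 1305 and 442 CPM, and at 433 and 143 CPM in Myh11 cells of the same libraries. Pdgfra stood there at 30.5 and 26.5 CPM, and at 360 and 246 CPM in Myh11 cells of the same libraries. The control libraries held only 1 and 12 Tnnt2-positive cells, so no such values are set beside them.

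**Figure D1:**
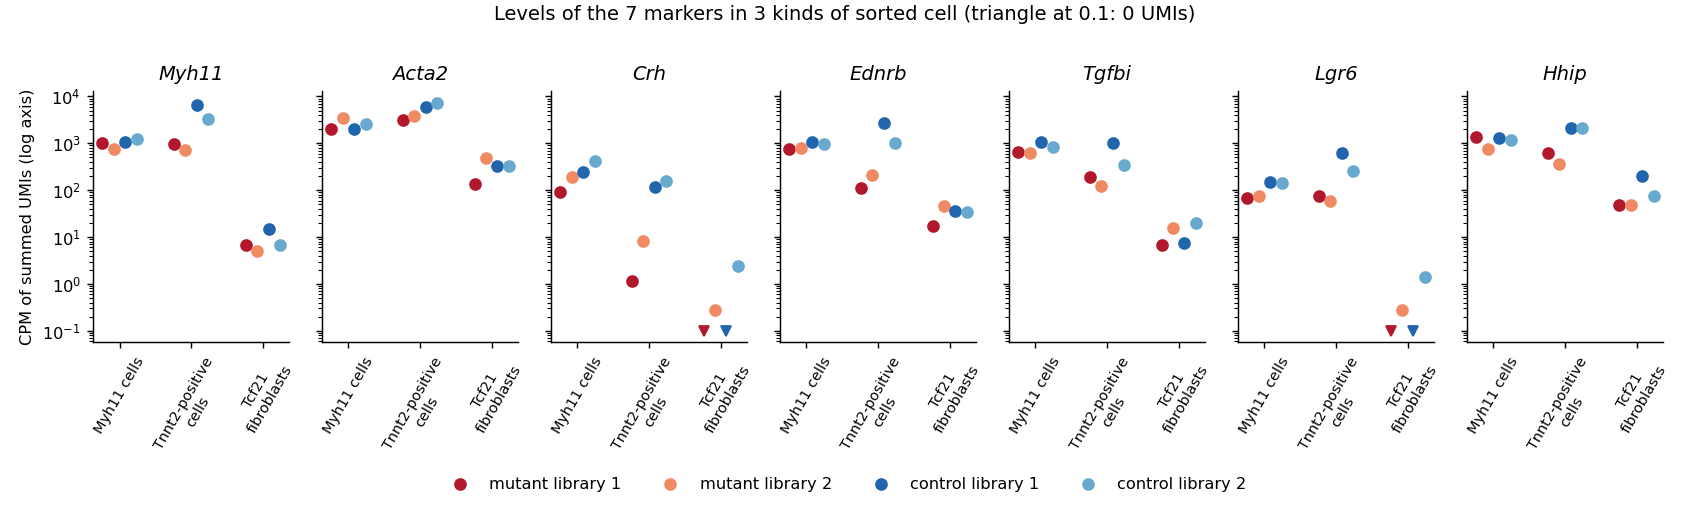
CPM of the 7 markers (log axis) in Myh11 cells, Tnnt2-positive cells and Tcf21 fibroblasts, 1 point per library, mutants left of controls, with triangles at 0.1 for 0 UMIs. Crh and Lgr6 are at or near 0 in Tcf21 fibroblasts and present in Myh11 cells of all 4 libraries, while Acta2 is present in all 3 kinds; the Tnnt2-positive points of the controls rest on 1 and 12 cells.

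Markers of smooth muscle and myofibroblasts were found in every library. Those of mesothelium, the cell type that the labels give the sorted cells, were low, apart from some in cluster 5, described below. All 9 airway smooth muscle markers had UMIs in each library, and their summed level was 3814 and 2879 CPM in mutants and 3304 and 3600 CPM in controls. Of 11 myofibroblast markers, at most 1 was at 0 UMIs in a library, and they summed to 3554 and 2846 CPM in mutants and 4702 and 4082 CPM in controls. The 10 vascular smooth muscle markers summed to 1675 and 1213 CPM in mutants and 3901 and 2956 CPM in controls, most of it Eln, and Itga7 and Gja4 were at 0 UMIs in both mutants and at 0.711 to 7.84 CPM in controls. Each of these last genes was found in only 1.77% of the cells of cluster 3, described below, and in 0% of the other clusters. Their values thus rest on very few cells. The 9 pericyte markers summed to 581 and 227 CPM in mutants and 776 and 434 CPM in controls, with 0 of them at 0 UMIs in any library. The 12 mesothelial markers summed to 177 and 89.3 CPM in mutants and 141 and 89.6 CPM in controls, most of it Aldh1a2, which makes retinoic acid in mesenchyme too, against 400.4 and 168 CPM in mutants and 1782 and 1481 CPM in controls in all other kept barcodes. Muc16 was at 0 UMIs in all 4 libraries, and Lrrn4 stood at 0 and 0 CPM in mutants and 3.13 and 1.42 CPM in controls. Epithelial, endothelial, immune, and neural and Schwann markers each summed to under 30 CPM in every library, with Cdh5, Ptprc and Sox10 at 0 UMIs throughout. The 12 fibroblast markers summed to 382 and 328 CPM in mutants and 266 and 324 CPM in controls, against 1393 to 2609 CPM in Tcf21 fibroblasts. Erythroid markers summed to 7.73 and 738 CPM in mutants and 92.5 and 6.04 CPM in controls.

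Other genes with the highest ratio of Myh11 cells over the remaining kept barcodes, chosen among all genes by that ratio, held cell surface and actin genes. After Crh, Ednrb and Myh11 came Fhdc1, a formin, with a mean log2 ratio over the 4 libraries of 3.19, Entpd1, an ectonucleotidase, with 3.05, and Cdh4, R-cadherin, with 3.02. Scara5, a ferritin receptor, followed with 2.77, Smpx, a small muscle protein, with 2.73, the zinc finger gene Zfp536 with 2.72 and the neurexin gene Nrxn3 with 2.70. Rgs5, a regulator of G-protein signalling, had 2.52, the integrin gene Itga9 2.40 and Synpo2, an actin-bundling protein of muscle, 2.39. Entpd1 stood at 81.5 and 123 CPM in mutant and 163 and 128 CPM in control Myh11 cells, against 0 to 5.35 CPM in Tcf21 fibroblasts. Cdh4 stood at 96.3 and 77.3 CPM in mutant and 158 and 130.5 CPM in control Myh11 cells, against 0 to 0.140 CPM in Tcf21 fibroblasts. These ratios describe the cells the rule took and were not tested.

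Myh11 cells varied among themselves in how many contractile genes they held together. With Myh11 at 3 to 5 UMIs per 10000, Acta2 stood at 752 and 2262 CPM in mutants and 883 and 646 CPM in controls. With Myh11 at 10 or more, Acta2 stood at 2905 and 5941 CPM in mutants and 3316 and 4568 CPM in controls. Lmod1, an actin nucleator of smooth muscle, stood at 19.3 and 29.5 CPM in the lower range in mutants and 0 and 21.9 CPM in controls, and at 105 and 144 CPM in the higher range in mutants and 68.9 and 155 CPM in controls. Lgr6, Crh, Hhip and Eln also stood higher in the higher range in each library, while Pdgfra showed no such order. Top2a, a gene of dividing cells, ran the other way in each library, at 1027 and 411 CPM in mutants and 925 and 676 CPM in controls in the lower range, and at 42.9 and 368 CPM in mutants and 54.4 and 74.2 CPM in controls in the higher range.

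Unsupervised grouping of the 495 cells, with library means removed, gave 6 clusters, which are kept by number and given no cell type name. Cluster 1 (116 cells) was led by the mitotic genes Top2a, Prc1 and Nusap1 and by S-phase histone genes. Cluster 2 (115 cells) held the highest Myh11, with a median of 15.05 UMIs per 10000, and was led by Psd, Ndnf, Tceal6, Fbxl22 and Fhdc1, with Lmod1 and Synpo2 close behind. Cluster 3 (113 cells) was led by Ebf1, Pdzd2, Epas1, the pericyte list gene Higd1b, Cox4i2 and Mcam, beside haemoglobin genes, each in a minority of its cells, from 5.31% for Ebf1 and 6.19% for Higd1b to 20.4% for Mcam. Cluster 4 (57 cells) was led by Fmo2, Crh, Otulinl, Ibsp and Greb1, and held Crh at 994 CPM, Ednrb at 1896 CPM and Hhip at 1964 CPM. Cluster 6 (47 cells) was led by haemoglobin genes carried by few cells, and by Col23a1, Adamdec1, Slc38a5, Itga8 and the fibroblast factor Tcf21. Tcf21 was found in 44.7% of its cells, against 4.35 to 23.3% in the other clusters, and Npnt, nephronectin, in 48.9%. Elastin was high in clusters 2, 4 and 6, at 3080, 3241 and 2404 CPM, and stood at 381 to 724 CPM in clusters 1, 3 and 5.

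Cluster 5 (47 cells) was led by Col4a4, a basement membrane collagen, Adam23, S100a6, Gm12840 and Des, and also held Fbln2, Alcam and the cardiac actin gene Actc1. Des stood there at 726 CPM, and at 39.6 to 114 CPM in the other clusters. Pdgfra stood at 76.7 CPM and Ednrb at 261 CPM, in each case the lowest of the 6 clusters. A Tnnt2 UMI, which the rule allows below its limit, was found in 40.4% of its cells, against 1.75 to 11.3% in the other clusters, at a median of 15035 UMIs per cell against 11499 to 24488. Some of the listed mesothelial markers were highest there and others absent. Upk1b, Lrrn4, Bnc1, Muc16 and Car9 were at 0 CPM in cluster 5, while Upk1b stood at 1.01 to 2.62 CPM in clusters 1 to 3. Wt1 was found in 42.6% of its cells, against 0 to 8.62% in the other clusters, Krt18 in 21.3% against 0 to 5.17%, Msln in 12.8% against 0 to 1.75% and Rspo1 in 31.9% against 1.75 to 19.1%. Aldh1a2 stood at 170 CPM, against 24.5 to 94.8 CPM in the other clusters. It held 11 and 32 cells of the mutant libraries and 0 and 4 cells of the control libraries. Its cells thus had part of the profile of the Tnnt2-positive cells that the rule set aside, and results are given with and without it, a setting chosen after seeing the data. The cluster was formed from the expression of these same cells, and most of them were mutant. A smaller change of its leading genes on leaving it out therefore follows from the grouping and is no result.

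**Figure D2:**
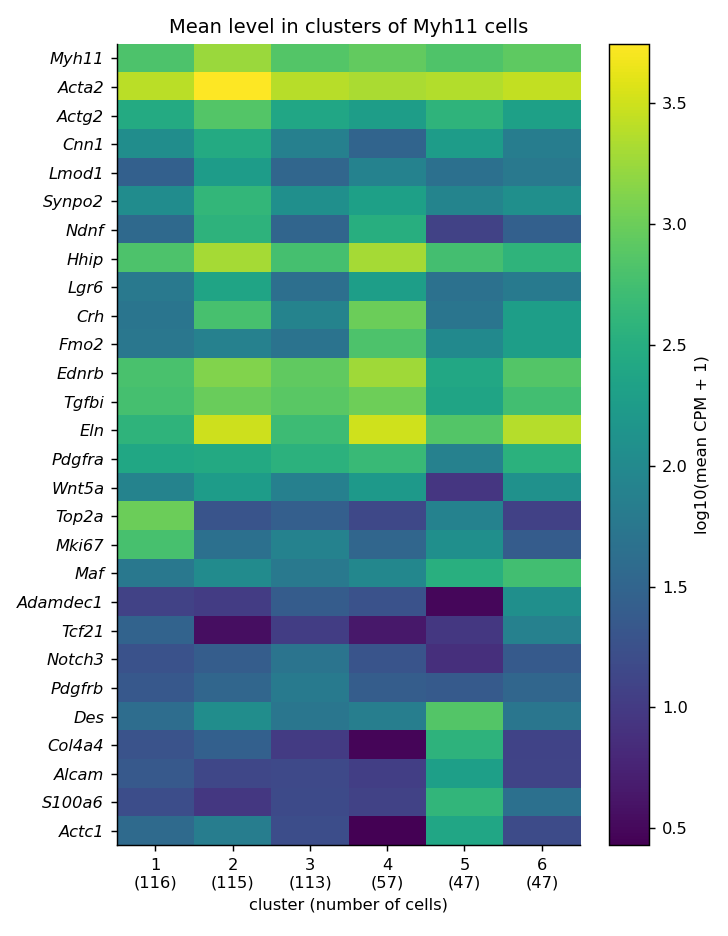
Mean level, as log10 of mean CPM + 1, of 28 genes (rows) in the 6 clusters of Myh11 cells (columns, with their number of cells). Cluster 1 holds Top2a and Mki67, cluster 2 the highest Myh11 and Acta2, cluster 4 the highest Crh and Fmo2, and cluster 5 Des, Col4a4, Alcam and S100a6 with the lowest Pdgfra.

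The first comparison asked whether Myh11 cells made up another share of the sorted cells in mutants. They made up 11.4% and 6.39% of kept barcodes in mutant libraries and 8.87% and 3.88% in control libraries. The means were 8.90% ± 3.55 in mutants and 6.37% ± 3.52 in controls (SD, n = 2 each), a difference of 2.52 percentage points, smaller than the spread between libraries (two-sided exact permutation test, p = 0.667, with 0.333 the smallest p that this design allows). The 95% Clopper-Pearson intervals, for counting error alone, ran from 8.50 to 14.9% and from 5.68 to 7.15% in mutants, and from 5.82 to 12.8% and from 3.27 to 4.56% in controls. The libraries numbered 1, with fewer barcodes, had the larger share in each genotype. The difference was 0.0121 points without mutant library 1, 5.035 without mutant library 2, 5.015 without control library 1 and 0.0313 without control library 2. It was 0.853 points with Myh11 at 10 or more and 0.883 points without cluster 5.

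**Figure D3:**
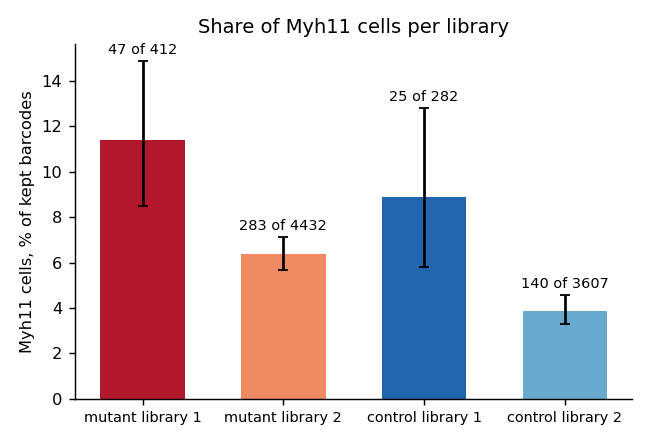
Myh11 cells as a percentage of kept barcodes in each library, with exact 95% binomial intervals and the counts above each bar. The mutant libraries, at 11.4% and 6.39%, overlap the control libraries, at 8.87% and 3.88%.

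The second comparison asked which genes differed between mutant and control Myh11 cells, on UMIs summed per library. The filter on low counts left 10837 genes, of which 0 (0%) had an adjusted p under 0.05 by edgeR's quasi-likelihood test with Benjamini-Hochberg adjustment (lowest adjusted p = 0.367). At an unadjusted p under 0.05 stood 308 genes (2.84%), of which 143 (1.32%) were higher and 165 (1.52%) lower in mutants. DESeq2 called 11 of 14998 genes (0.0733%), 3 higher and 8 lower, namely Ptn, Des, Alcam, Eln and 7 histone genes. The edgeR count was 137 with the replicate number as a block, which the labels do not give as a pairing, and 101 with no filter on low counts. It was 49 without mutant library 1, 24 without mutant library 2 and 39 without control library 2, each of which leaves a lone library that is assumed to vary like the other genotype's. Both mutant libraries stood above both controls for 1539 genes (14.2%) and below both for 1629 (15%). Genes below are therefore given as values, on a normalized CPM scale with log2 changes of mutant over control and their standard errors (SE, n = 2 libraries each). The median change of all genes tested was 0.02.

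The targeted gene gave no check of the labels within these cells. Myrf (ENSMUSG00000036098, chromosome 19, 10208272 to 10240748) stood at 9.59 and 3.55 CPM in mutant and 4.64 and 7.10 CPM in control Myh11 cells, with overlapping genotypes. The log2 change was -0.06 ± 0.63 (edgeR adjusted p = 0.9998). Wt1, the site of the Cre driver, stood at 9.59 and 4.26 CPM in mutants and 1.55 and 9.23 CPM in controls. The labels do not name the floxed exons, and a 3' tag outside them is still counted.

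The 5 genes with the smallest p on the higher side were Ptn, Gja1, Alcam, S100a6 and Emp1, and 0 passed. Ptn, the secreted growth factor pleiotrophin (ENSMUSG00000029838, chromosome 6, 36714929 to 36810220), stood at 121 and 97.1 CPM in mutants and 12.4 and 27.7 CPM in controls, a log2 change of 2.28 ± 0.36 (edgeR adjusted p = 0.367). Gja1, the gap junction protein connexin 43 (chromosome 10, 56377330 to 56402513), stood at 72.2 and 65.8 CPM in mutants and 13.9 and 22.4 CPM in controls (log2 change 1.82). Alcam, a cell adhesion molecule (chromosome 16, 52248996 to 52454074), stood at 90.3 and 47.8 CPM in mutants and 15.5 and 12.8 CPM in controls (log2 change 2.32). The 5 were chosen among genes whose lower mutant library stood above the higher control, so that order is no result. S100a6, a calcium-binding protein (chromosome 3, 90612882 to 90624181), stood at 235 and 81.0 CPM in mutants and 1.55 and 16.7 CPM in controls. Emp1, a membrane protein (chromosome 6, 135362545 to 135383173), stood at 73.9 and 50.4 CPM in mutants and 15.5 and 22.7 CPM in controls (log2 change 1.61).

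Part of this went with cluster 5. S100a6 and Alcam are among the genes that lead that cluster, so their smaller change without it follows from the grouping. Without its cells the log2 change of S100a6 was 0.56, against 3.69 with them, that of Alcam was 1.19, and those of Ptn, Gja1 and Emp1 were 1.61, 1.44 and 1.48. With Tnnt2, Upk3b and Sftpc all at 0 UMIs, which left 13 and 230 cells in mutants and 16 and 79 in controls, Ptn was at -0.02 and Alcam at 0.27, while Gja1 was at 1.04. A deeper cell is more likely to hold such a UMI, so this setting favours shallow cells wherever it is used. Mutant library 1, the deepest, kept 13 of its 47 cells, and mutant library 2 kept 230 of 283. In cells with Xist and no Y-linked UMI, the log2 changes were 2.75 for Ptn, 1.78 for Gja1, 2.17 for Alcam, 2.06 for S100a6 and 1.34 for Emp1.

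The 5 genes with the smallest p on the lower side were all histone genes, which encode nucleosome proteins made in S phase. Hist1h3b (ENSMUSG00000069267, chromosome 13, 23752267 to 23752886) stood at 7.34 and 7.58 CPM in mutants and 30.9 and 42.2 CPM in controls, a log2 change of -2.32 ± 0.33 (edgeR adjusted p = 0.367). Hist1h4c stood at 16.9 and 11.8 CPM in mutants and 74.2 and 53.9 CPM in controls, and Hist1h2an at 46.3 and 17.0 CPM in mutants and 125 and 163 CPM in controls. Hist1h2af and Hist1h2ab had log2 changes of -1.79 and -2.03. These 5 were chosen among genes with both mutant libraries under both controls, so that order is no result. Near-identical copies of these genes can share reads. Without cluster 5 the 5 changes ran between -2.05 and -1.56, and in Xist cells alone between -1.61 and -0.68.

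The histone family was then counted as a whole, a choice made after these values were seen and without a test. Of 50 tested genes of the Hist1h to Hist4h groups, 46 were below 0 and 37 had both mutants below both controls (15% of all genes), with a median of -1.16. Over all 67 genes of these groups the summed level was 2619 and 2269 CPM in mutant and 6705 and 5516 CPM in control Myh11 cells. In Tcf21 fibroblasts the sum was 7668 and 3894 CPM in mutants and 12599 and 7167 CPM in controls, and in all other kept barcodes 4066 and 2797 CPM in mutants and 6195 and 2994 CPM in controls. The genotypes were apart in Myh11 cells and overlapped in both other sets. Mutant library 1, the higher mutant in both other sets, held only 11 Tcf21 fibroblasts. The interaction of genotype with kind of cell, described below, did not pass for any histone gene. The list of 30 cell cycle genes did not share this direction. Of its 30 tested genes, 26 were above 0 (52.3% of all genes) and 11 had both mutants above both controls (14.2% of all genes). Their median was 0.34, and 0 passed. The mitotic genes Ccnb1, Aurka, Bub1b and Cenpf had log2 changes of 0.88, 1.08, 0.74 and 0.88, while Top2a was at 0.12 and Mki67 at 0.17.

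**Figure D4:**
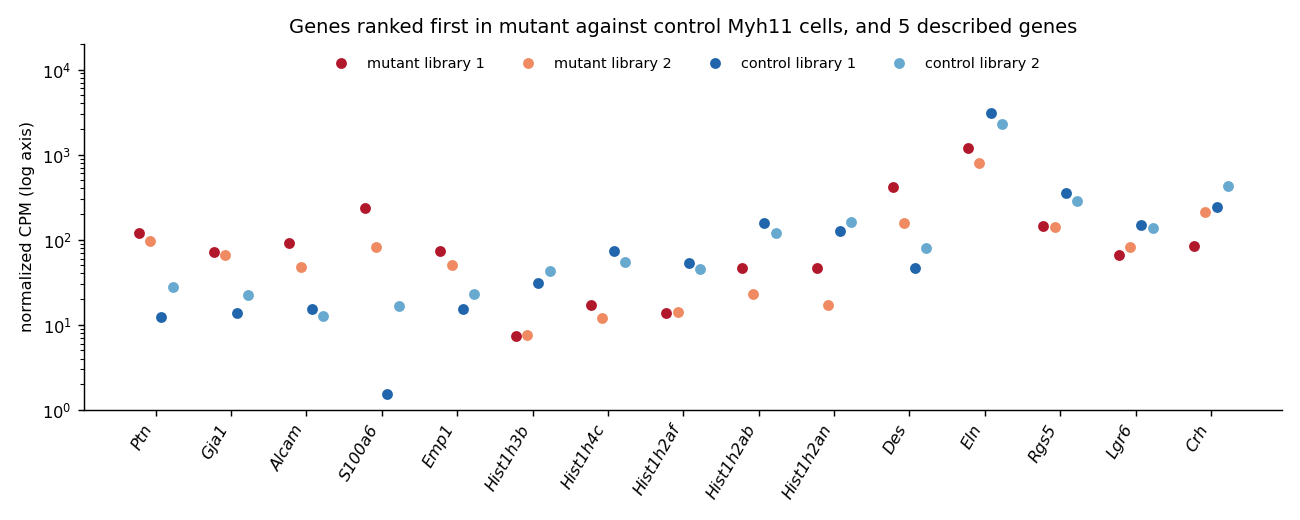
Normalized CPM (log axis) of the 5 higher and 5 lower genes with the smallest p, and of Des, Eln, Rgs5, Lgr6 and Crh, 1 point per library with mutants left of controls. In all 15 genes both mutant points lie on the same side of both control points, and 0 genes passed the adjusted test. For the 5 higher and 5 lower genes that order was a condition of their choice.

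Genes of the contractile apparatus were split evenly in direction. Of 20 listed genes 18 were tested, 9 were above 0 and 9 below, 0 passed, and the median log2 change was 0.03. Tagln, an actin-binding protein of smooth muscle, stood at 2165.6 and 2311 CPM in mutants and 1281 and 1639 CPM in controls (log2 change 0.61, unadjusted p = 0.071 by edgeR), and Actg2, enteric smooth muscle actin, at 327 and 437 CPM in mutants and 168 and 330 CPM in controls. Mylk, the kinase that activates smooth muscle myosin, stood at 1182 and 1130 CPM in mutants and 1238 and 1387 CPM in controls. Acta2 had a log2 change of 0.31 ± 0.39, and Myl9, the myosin light chain whose promoter is shown above, of 0.18. Des was the exception in size. It stood at 411 and 157 CPM in mutants and 46.4 and 78.8 CPM in controls, a log2 change of 2.12 ± 0.47 (edgeR adjusted p = 0.766), and its change was 0.11 without cluster 5 and 0.84 in Xist cells alone. Because Des is a leading gene of cluster 5, its smaller change without that cluster follows from the grouping.

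Among 24 tested transcription factors of smooth muscle, 8 were above 0, 16 below and 0 passed, with a median of -0.13. Heyl, a Notch effector of vascular muscle, stood at 5.08 and 4.50 CPM in mutants and 55.6 and 12.1 CPM in controls, and Jag1, a Notch ligand, at 5.08 and 8.76 CPM in mutants and 32.5 and 13.5 CPM in controls. Control library 1 was the highest in both genes and had the fewest cells. Tbx5, a lung mesenchyme factor, stood at 223 and 236 CPM in mutants and 365 and 328 CPM in controls (log2 change -0.59). Myocd, the myocardin gene, had a log2 change of -0.31 and Foxf1 of -0.19. Pdgfra had a log2 change of -0.46, in a list of PDGF and Notch genes with 11 tested, 5 above 0, 6 below and a median of -0.18.

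Lgr6, Rgs5 and Crh, which were higher in Myh11 cells than in the remaining kept barcodes, stood lower in both mutant libraries and did not pass. Lgr6 (ENSMUSG00000042793, chromosome 1, 134983301 to 135105276) stood at 66.0 and 81.4 normalized CPM in mutants and 149.9 and 139 CPM in controls, a log2 change of -0.96 ± 0.26 (edgeR adjusted p = 0.9998). Rgs5 (chromosome 1, 169655501 to 169695813) stood at 146 and 139 CPM in mutants and 354 and 285 CPM in controls, a log2 change of -1.16 ± 0.26 (edgeR adjusted p = 0.766). Crh (ENSMUSG00000049796, chromosome 3, 19693401 to 19695396) stood at 84.7 and 212 CPM in mutants and 239.6 and 428 CPM in controls, a log2 change of -1.17 ± 0.45. For all 3 both mutants lay under both controls, as they did for 15% of all genes. Without cluster 5 the log2 changes were -0.80, -0.93 and -0.95. With the 3 excluded genes at 0 UMIs they were -0.55, -0.31 and -0.82, and in Xist cells alone -1.13, -1.14 and -1.35. Ednrb and Tgfbi had log2 changes of -0.33 and -0.54, and of 0.054 and -0.25 in Xist cells alone, so Ednrb turned direction there, as it did at 0.14 with the 3 excluded genes at 0 UMIs. Of 19 tested genes for contraction receptors and calcium handling, 4 were above 0 and 15 below, with a median of -0.24. The exception by size was Chrm2, a muscarinic receptor, at 63.2 and 18.5 CPM in mutants and 3.09 and 12.1 CPM in controls (log2 change 2.06, with 0.33 without cluster 5 and 2.10 in Xist cells alone).

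Elastin, the elastic fibre protein, stood lower in both mutant libraries and did not pass. Eln (ENSMUSG00000029675, chromosome 5, 134702593 to 134747323) stood at 1189 and 797 CPM in mutants and 3110.0 and 2315 CPM in controls, a log2 change of -1.45 ± 0.34 (edgeR adjusted p = 0.806). Within the range of Myh11 at 3 to 5 UMIs per 10000 it stood at 363 and 418 CPM in mutants and 1110 and 1242 CPM in controls. In the range of 5 to 10 it stood at 687 and 776 CPM in mutants and 2558 and 1671 CPM in controls, and at 10 or more at 2211 and 1261 CPM in mutants and 4561 and 3491 CPM in controls. The genotypes were apart in each of the 3 ranges, which split the cells of the same libraries and add no replicates. From the lowest range to the highest, control library 1 held 5, 9 and 11 cells and mutant library 1 held 11, 12 and 24. Its log2 change was -1.38 without cluster 5, -1.97 in Xist cells alone and -0.80 with the 3 excluded genes at 0 UMIs. Eln and Rgs5 are on the vascular smooth muscle list, of which 7 genes were tested, 2 above 0, 5 below and 0 passed, with a median of -0.66. Both mutants lay under both controls for 3 of the 7, as they did for 15% of all genes. Of 10 tested myofibroblast markers, 2 were above 0, 8 below and 0 passed, with a median of -0.39. Both mutants lay under both controls for 4 of the 10 (15% of all genes) and above them for 0 (14.2% of all genes). Crh, Ednrb and Tgfbi, whose values are given above, are among these 4, so the count adds little to them. Of 8 tested pericyte markers, among them Rgs5, 2 were above 0, 6 below and 0 passed, with a median of -0.58. Cspg4, a pericyte proteoglycan, stood at 28.8 and 10.9 CPM in mutants and 106.7 and 27.7 CPM in controls, so its genotypes overlapped. Its highest value was that of control library 1, which had the fewest cells. The part of vascular muscle cells or pericytes among the Myh11 cells in the values of Eln and Rgs5 was not tested.

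The matrix list was split in direction. Of 35 tested genes of the matrix and elastic fibre list, 18 were above 0, 17 below and 0 passed, with a median of 0.02. Lox, which crosslinks elastin, stood at 369 and 365 CPM in mutants and 626 and 475 CPM in controls (log2 change -0.58), so that both mutants lay under both controls, as for elastin. The small proteoglycan genes Dcn and Ogn had log2 changes of 1.40 and 1.90, and the fibulin gene Fbln2 of 2.46. Without cluster 5 these were 1.08 for Dcn, -0.07 for Ogn and -0.94 for Fbln2, so the last 2 turned direction, and in Xist cells alone 0.41, 0.63 and 0.85. Fbln2 is a leading gene of cluster 5, so its fall without that cluster follows from the grouping. Of 28 tested genes of basement membrane and adhesion, 6 were above 0 and 22 below, with a median of -0.17. Col15a1, a basement membrane collagen, stood at 18.1 and 7.81 CPM in mutants and 44.8 and 40.8 CPM in controls, and Cdh4 had a log2 change of -0.69. Npnt, nephronectin, had a log2 change of 1.49, and of -0.22 with the 3 excluded genes at 0 UMIs.

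Signalling lists held few genes at an unadjusted p under 0.05 and 0 that passed. In the hedgehog pathway 3 of 11 tested genes were above 0 and 8 below, with a median of -0.13, and the effector Gli1 stood at 67.7 and 37.4 CPM in mutants and 125 and 85.5 CPM in controls (log2 change -0.998, and -0.18 in Xist cells). In the FGF pathway 3 of 11 were above 0 and 8 below, with a median of -0.31. Its ligand Fgf18 stood at 95.4 and 124 CPM in mutants and 199 and 165 CPM in controls, and the feedback inhibitors Spry1 and Dusp6 had log2 changes of -0.98 and -0.68. Fgf10, the ligand of lung budding, had a log2 change of 1.54 at 22.01 and 9.71 CPM in mutants and 3.09 and 6.03 CPM in controls, and of -0.35 in Xist cells alone, where it turned direction.

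In the Wnt and R-spondin list 11 of 26 were above 0 and 15 below, with a median of -0.07. Wnt5a, a ligand of myofibroblasts, stood at 51.4 and 103 CPM in mutants and 176 and 122 CPM in controls, and the inhibitors Notum and Frzb had log2 changes of -1.11 and -1.54 at under 15 CPM in every library. Rspo3, an R-spondin, had a log2 change of 2.02 at 39.5 and 13.7 CPM in mutants and 7.73 and 5.68 CPM in controls. The BMP list had 8 of 15 above 0 and a median of 0.01, with Bmp4 at 49.7 and 77.4 CPM in mutants and 122 and 96.2 CPM in controls, and Id4, a BMP-responsive factor, at a log2 change of 1.58. The TGF-beta list had 8 of 17 above 0 and a median of -0.02, with Tgfb3 at 0.70. The IGF list had 6 of 14 above 0 and a median of -0.09, with the binding protein gene Igfbp6 at -1.78 and under 11 CPM throughout.

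Glycolysis and hypoxia genes had the highest median of the 15 pathway lists with at least 5 tested genes. Of 18 tested, 14 were above 0, 4 below, 11 had both mutants above both controls (14.2% of all genes) and 0 passed, with a median of 0.66. Gapdh stood at 594 and 846 CPM in mutants and 383 and 475 CPM in controls, Ldha at 304 and 416 CPM in mutants and 209 and 247 CPM in controls, and Pgam1 at 171 and 259 CPM in mutants and 114 and 139 CPM in controls. Vegfa, the hypoxia-regulated vessel growth factor, stood at 43.5 and 47.6 CPM in mutants and 23.2 and 28.4 CPM in controls. Egln3, a hypoxia-induced prolyl hydroxylase, went the other way at 46.8 and 43.3 CPM in mutants and 83.5 and 64.2 CPM in controls. The log2 changes without cluster 5 were 0.80 for Vegfa and 0.75 for Pgam1, and 1.01 and 0.92 in Xist cells alone. Of 20 genes of the dissociation and stress response, 11 were above 0 and 9 below, with a median of 0.09. Among the 22 genes of the striated sarcomere 4 were tested, and Tnnt1 had a log2 change of -0.72.

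**Figure D5:**
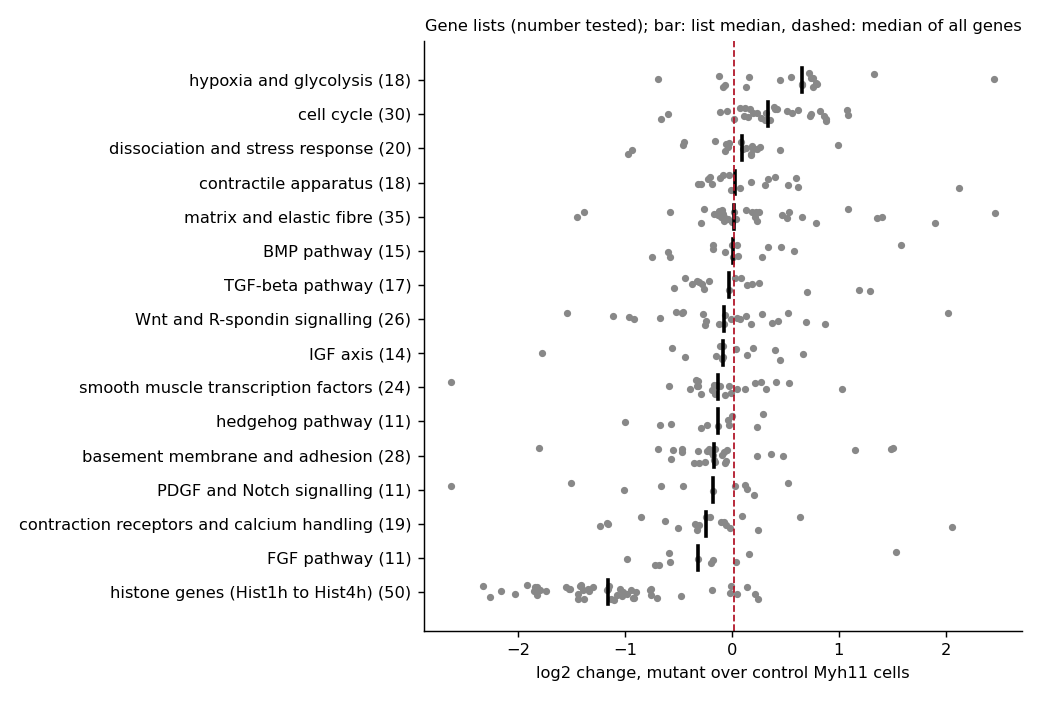
Log2 change of mutant over control Myh11 cells for each tested gene (points) in 15 chosen lists and in the histone family, with the list median as a bar and the median of all genes, 0.02, as a dashed line. Medians run from -1.16 in the histone family, which was chosen after its values were seen, to 0.66 in hypoxia and glycolysis.

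The third comparison asked where the difference between genotypes in Myh11 cells departed from that in Tcf21 fibroblasts of the same libraries. The interaction passed for 5 of 11122 genes (0.045%; edgeR quasi-likelihood, adjusted p under 0.05), and 275 (2.47%) stood at an unadjusted p under 0.05. Alcam stood at 88.1 and 46.3 CPM in mutant and 14.95 and 12.48 CPM in control Myh11 cells, and at 36.2 and 49.1 CPM in mutant and 98.97 and 58.8 CPM in control fibroblasts. Its difference of log2 changes was 2.68 ± 0.42 (edgeR adjusted p = 0.0492). Both mutants stood above both controls in Myh11 cells and below them in fibroblasts. Fn1, fibronectin, stood at 372 and 175 CPM in mutant and 239 and 145 CPM in control Myh11 cells, and at 603 and 257 CPM in mutant and 883 and 511 CPM in control fibroblasts. Its difference was 1.23 ± 0.19 (edgeR adjusted p = 0.0421). The genotypes overlapped for Fn1 in both kinds of cell. The other 3 genes were the haemoglobin genes Hbb-bs, Hba-a2 and Hba-a1, carried by 2 Myh11 cells of mutant library 2 with over 1% haemoglobin UMIs. Without cells over 1% haemoglobin 0 genes passed, while the differences of Alcam and Fn1 were 2.69 and 1.24 (edgeR adjusted p = 0.123 for both). Without cluster 5 the genes that passed were 2 haemoglobin genes, with Alcam at 1.75 and Fn1 at 0.81 (edgeR adjusted p = 1 for both), and leaving out a library gave 19 without mutant library 1, 34 without mutant library 2, 10 without control library 1 and 36 without control library 2. Alcam is among the leading genes of cluster 5, so its smaller difference without that cluster follows from the grouping. Mutant library 1 held only 11 Tcf21 fibroblasts.

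For the histone genes and elastin the interaction did not pass. Hist1h3b had a difference of log2 changes of -0.38 and Hist1h4c of -0.69 (edgeR adjusted p = 1 for both). Eln stood at 682 and 219 CPM in mutant and 839 and 641 CPM in control fibroblasts, and its difference was -0.50 ± 0.24. Ptn and Emp1 had differences of 2.38 and 1.54 (edgeR adjusted p = 0.912 and 0.229). S100a6 had a difference of 3.05 (edgeR adjusted p = 0.109), with 115 and 76.5 CPM in mutant and 106 and 65.1 CPM in control fibroblasts.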

How the data were processed

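The authors deposited UMI counts for each gene in each barcode, made with Cell Ranger 6.0.2 on mm10, per the submitters' processing notes, from 10x Chromium 3' V3 libraries, per the labels' protocols. About 50000 cells were sorted and about 16000 loaded per genotype. Annotation release and barcode calling settings are not given in the sources used here. In all 32235 gene IDs matched GENCODE vM21, which gave locations (1-based). Members, markers and gene lists were chosen with earlier results of these data known.

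UMIs were summed per library over Myh11 cells. The test was edgeR 4.0.16 under R 4.3.3, with TMM, filterByExpr and a two-sided quasi-likelihood F-test without covariates. DESeq2 1.42.0 was an alternative. The interaction had library as a block, and Tcf21 fibroblasts also had Tnnt2 under 1, Upk3b under 2 and Sftpc under 2 UMIs per 10000. Normalized CPM use TMM library sizes, and marker CPM use raw totals. Simulated data with known changes were used to test the edgeR code. Of the 2-fold and 4-fold changes put in, the comparison of genotypes recovered 14% and 68%, and the interaction 8% and 50%. A count of 0 genes that passed therefore does not show that no gene changed. Cells were clustered in scanpy 1.11.5 (1500 variable genes, 20 components, 15 neighbours, resolution 0.5). Scrublet's automatic threshold marked 2 and 0 barcodes in mutant and 5 and 2 in control libraries and did not work, so doublets stayed in, and an alternative removed the highest scores at 0.8% per 1000 barcodes, among them 0 and 19 Myh11 cells of mutants and 0 and 1 of controls. Replicates were not repeats of 1 library (chi-square over degrees of freedom 22.9 in mutants and 8.87 in controls).

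The text names the given markers, the genes of the rule, Myrf and Wt1, the 5 genes with the smallest p in each direction with at least 20 CPM and no overlap, up to 4 genes per list, and the 15 highest ratios. Of the list genes, those at an unadjusted p under 0.05 were taken, or the lowest alone. Other names (Tagln, Actg2, Mylk, Myl9, Myocd, Foxf1, Pdgfra, Lox, Wnt5a, Cspg4, Gapdh, Ldha, Top2a, Mki67, Fn1) were chosen after their values were seen.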

Additional observations from a re-analysis of the deposited data

Results flagged for a closer look

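The difference between mutant and control Myh11 cells departed from that in Tcf21 fibroblasts in 5 genes, by an edgeR test of the interaction. The differences of log2 changes were 5.23 for Hbb-bs, 4.68 for Hba-a2, 5.79 for Hba-a1, 1.23 for Fn1 and 2.68 for Alcam. Hbb-bs stood at 0.551 and 337 CPM in mutant and 26.9 and 1.04 CPM in control Myh11 cells, so the haemoglobin values rest on mutant library 2, where 1 Myh11 cell reached 14.1% haemoglobin. Without cells over 1% haemoglobin 0 genes passed. The differences were then -1.22 for Hbb-bs, -0.44 for Hba-a2 and -0.88 for Hba-a1, whereas those of Fn1 and Alcam hardly moved, at 1.24 and 2.69, with an edgeR adjusted p of 0.123 for both. Without cluster 5 Fn1 was at 0.81 and Alcam at 1.75 (edgeR adjusted p = 1 for both).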

How the results depend on the processing

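In the comparison of mutant with control Myh11 cells, 0 genes passed by edgeR with RLE normalization, with the stricter low-count filter, with every other Myh11 minimum, with the excluded genes at 0 UMIs, with all deposited barcodes, with doublets removed, without cluster 5, in Xist cells alone and without cells over 1% haemoglobin. The count was 11 with DESeq2, 101 with no low-count filter and 0 to 49 on leaving out a library. With the replicate block it was 137, with 60 higher and 77 lower. The labels do not pair the libraries, and the differences between replicates 1 and 2 correlated across genes with r = 0.25 between genotypes, over 2 pairs only. For the interaction the count was 1 with RLE, 42 with no low-count filter, 0 without cells over 1% haemoglobin, 2 without cluster 5, and 10 to 36 on leaving out a library. The difference in share stayed above 0 in all settings run, between 0.0121 and 5.035 points. The cause of these differences was not tested.

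Of 907 log2 values of named genes under the alternatives, 20 had the other sign. Without mutant replicate 2 these were Acta2 at -0.27, Hhip at 0.061, Myrf at 0.60 and Wt1 at 0.49, and without control replicate 2 Myrf at 0.42 and Wt1 at 2.06. On leaving out a library, these genes ran from -0.27 to 0.72, from -0.59 to 0.061, from -0.81 to 0.60 and from -0.65 to 2.06. With DESeq2 they were Myrf at 0.076 and Wt1 at 0.18. With the excluded genes at 0 UMIs they were Ednrb at 0.14, Ptn at -0.023, Ogn at -0.45, Fbln2 at -0.41, Npnt at -0.22 and Atf3 at -0.33. In Xist cells they were Ednrb at 0.054 and Fgf10 at -0.35, with Myh11 at 10 or more Dusp6 at 0.094, and without cluster 5 Ogn at -0.0735, Fbln2 at -0.94 and Atf3 at -0.26. Summed UMIs were lowest in control library 1, with 25 Myh11 cells, of which 6 were in the Xist setting.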
